A study of Mus musculus with 5 samples.

Results

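Rab GTPases are small switches of membrane traffic, and 54 genes of this family were followed while mouse bone marrow-derived macrophages became osteoclasts, the multinucleated cells that resorb bone. A gene was a member when its symbol in the platform annotation was Rab followed by a number and at most a letter and a digit and a row of the array table named it alone. Rab7, Rab38, Rab3d and Rab27a were left out of the set. These 54 were part of 22180 genes with a row of their own, and 44 of them passed the level filter that kept 12049 genes, a mean of at least 4.89 (log2) over the 5 arrays. Such genes are called measured here. Rab4b was named only in rows shared with other genes and was not counted.

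All cells were wild-type, from mice given as 10 weeks old, and grew on plastic with 20 ng/ml M-CSF, which keeps macrophages and their precursors alive, together with RANKL at 30 ng/ml, which turns them into osteoclasts. Both were given for 0 to 5 days, so day 0 was the start, labelled as macrophages, days 1, 2 and 3 were differentiating cells, and day 5 was the culture the labels give as mature. Each of these 5 days had 1 Affymetrix array from 5 ng of total RNA. Because a day rests on 1 array, the spread between cultures is unknown, nothing could be tested, and every difference compares a pair of arrays, whose number limits the precision. The number of mice is not stated, and no later day without RANKL was analysed here, so RANKL and time in culture cannot be told apart.

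A Rab protein is active when it holds GTP and sits on a membrane through a prenyl anchor. Exchange factors switch it on, GTPase-activating proteins switch it off, and effectors such as tethers and motor adaptors act on its behalf. In osteoclasts, lysosome-related vesicles fuse with the bone-facing membrane to build the ruffled border, which secretes acid and proteases and takes up degraded matrix, and bisphosphonate drugs of the nitrogen-containing kind block the prenylation of Rab proteins in these cells.

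As a check of the labels, all 9 osteoclast markers lay above the level filter at day 5, against 5 of 9 at day 0, with list medians of 12.13 and 6.54. The 8 macrophage markers were above it on every array, with a median of 10.29 at day 5 and 11.34 at day 0. Of 8 neutrophil markers, 6 were above it at day 5 and 7 at day 0, with medians of 5.35 and 6.41. Their part in the Rab values was not tested. Both B cell markers were below the filter on all arrays, and at most 1 of 4 T and NK cell, 2 of 5 stromal and 3 of 3 endothelial markers were above it on any array. The erythroid markers were not analysed here. Array medians lay between 4.88 and 4.92.

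How far the array disagrees with itself can be read from 500 genes with a second measured row. Their rows gave differences between days 5 and 0 that disagreed with an SD of 0.59, and between days 1 and 0 with an SD of 0.45. The median size of the disagreement was 0.23 for either pair of days. This does not cover the spread between cultures. RNA of the whole culture was measured, so fewer cells of a type and less RNA per cell cannot be told apart.

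Most Rab genes, like most measured genes, were within 2-fold of day 0 at day 5. On that day, 1 of 44 measured members was at least 2-fold higher than at day 0 (2.27%, against 6.78% of all measured genes) and 2 were at least 2-fold lower (4.55%, against 6.56%). The higher one was Rab34, and the lower ones were Rab7b and Rab32, all placed here in the lysosome-related group. The groups are broad and were drawn up with earlier results of these data known, so this shared placement is not a separate result. Centring arrays on 12 reference genes, 2 of them at least 2-fold higher at day 5 themselves, lowered the median of all measured genes. With it, 1 member was higher (2.27%, against 3.71% of measured genes) and 5 were lower (11.4%, against 14.5%). The median difference was 0.0049 over the Rab genes and 0.00 over all measured genes. With any later day in place of day 5, 4 members reached 2-fold (9.09%, against 20.6% of measured genes), namely Rab34, Rab7b, Rab32 and Rab8b. The range of a gene over its 5 arrays had a median of 0.37 log2 units for Rab genes and 0.59 for all measured genes. At day 5, 21 members lay within 0.1 of day 0 (47.7%), against 25.5% of measured genes. Of these, 5 members had exactly the same value at both days, as had 964 of the 12049 measured genes.

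**Figure D1:**
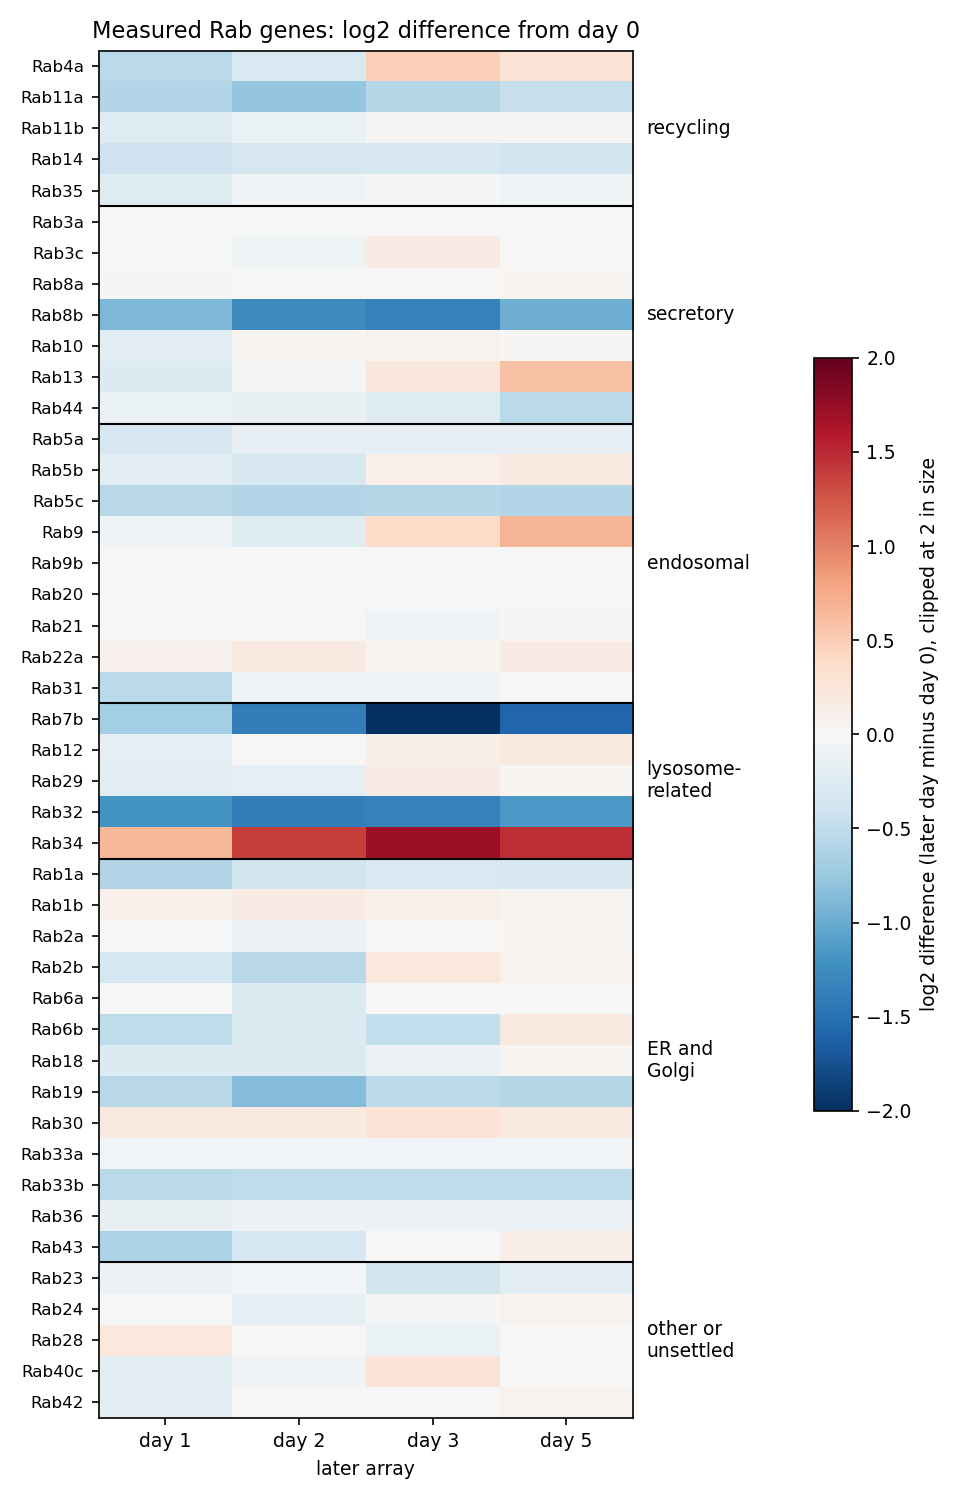
Heat map of the log2 difference from day 0 for the 44 measured Rab genes (rows, grouped by role) on the arrays of days 1, 2, 3 and 5 (columns), 1 array each; red is higher and blue lower than day 0, and colours end at 2 in size. Rab34 is the red row, Rab7b, Rab32 and Rab8b are the dark blue rows, and most of the rest is pale.

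The Rab genes that differed were ordered by day. At day 1, 0 of 44 were at least 2-fold higher (2.91% of measured genes were) and 1 was lower, Rab32 (4.17% of measured genes were). At day 2, Rab34 was the 1 higher member (5.18% of measured genes), and Rab7b, Rab8b and Rab32 were the 3 lower ones (5.25%). The same 1 and 3 members stood there at day 3, where 7.29% of measured genes were higher and 7.50% lower. Between neighbouring days after day 1 no member differed 2-fold. Among all measured genes 2.46% were higher and 0.556% lower at day 2 than at day 1, 2.08% and 3.91% at day 3 than at day 2, and 0.158% and 0.116% at day 5 than at day 3. At day 5 against day 1 as well, 0 members were 2-fold higher and 0 lower, where 6.30% and 6.73% of measured genes were.

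The sequences just upstream of the start are shown for the genes 2-fold from day 0 on a later day that were matched in the promoter table, Rab34, Rab32 and Rab8b. Windows of 250 bases before each start came from RefSeq (build GRCm38.p6), and 37 of the 44 measured Rab genes were matched. The motifs searched on both strands were TGACTCA, the AP-1 site, TGGAAA, the core bound by NFAT factors, CACGTG, an E-box, and TCACGTGA, the core of the site of TFEB and TFE3, which always contains that E-box. Capitals mark any match, and the windows are chr11:78188177-78188426 (plus strand, the first of the starts listed for Rab34), chr10:10558208-10558457 (minus strand, Rab32) and chr9:66919706-66919955 (minus strand, Rab8b).
Rab34: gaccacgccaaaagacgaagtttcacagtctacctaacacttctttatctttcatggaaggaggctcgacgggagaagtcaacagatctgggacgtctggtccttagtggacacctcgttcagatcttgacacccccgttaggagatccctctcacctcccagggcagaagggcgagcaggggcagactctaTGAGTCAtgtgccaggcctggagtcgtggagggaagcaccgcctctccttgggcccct
Rab32: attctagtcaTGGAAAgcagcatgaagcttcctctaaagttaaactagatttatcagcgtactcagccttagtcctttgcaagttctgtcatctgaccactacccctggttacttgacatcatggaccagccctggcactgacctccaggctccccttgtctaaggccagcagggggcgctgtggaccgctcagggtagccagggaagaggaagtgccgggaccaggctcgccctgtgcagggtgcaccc
Rab8b: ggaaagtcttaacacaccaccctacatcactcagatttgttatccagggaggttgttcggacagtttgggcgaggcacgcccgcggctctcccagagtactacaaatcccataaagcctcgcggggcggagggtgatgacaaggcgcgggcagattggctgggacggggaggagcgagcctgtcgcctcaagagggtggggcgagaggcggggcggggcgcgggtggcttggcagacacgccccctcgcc
The Rab34 window held an AP-1 site on the minus strand, 58 bases before the start. No other Rab window held that motif, including the one at the second listed start of Rab34. It was in 4.46% of all 32851 windows. The Rab32 window had TGGAAA 240 bases before its start, a motif found for 6 of the matched Rab genes and in 18.6% of all windows. The other 5 were Rab13, Rab1b, Rab3a, Rab3c and, at its second listed start, Rab34. The Rab8b window had none of these letters. CACGTG lay in windows of Rab5a, Rab20, Rab21 and Rab23 (6.02% of all windows), and the longer TCACGTGA in those of Rab5a and Rab21 (0.785%). These are matches of letters, not measured binding.

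In the lysosome-related group, 5 of 5 members were measured. Rab34 acts in macropinosome formation, in the positioning of lysosomes and in the making of cilia. Its log2 values were 6.09, 6.75, 7.47, 7.82 and 7.56 at days 0, 1, 2, 3 and 5. Every later array was above day 0 and the array of day 3 was the highest, so that day 5 was 2.77-fold higher than day 0 (log2 difference 1.47). Against day 1 the difference was 0.80, under 2-fold.

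Rab7b, which acts between late endosomes and the Golgi and restrains Toll-like receptor signalling in macrophages, had log2 values of 9.53, 8.85, 8.16, 7.45 and 7.95 at days 0, 1, 2, 3 and 5. It was lower on each array than on the one before up to day 3, by 0.68, 0.70 and 0.70, and 0.50 higher at day 5 than at day 3. At day 5 it was 2.99-fold lower than at day 0 (log2 difference -1.58) and lay -0.90 from day 1. Rab7b was thus spread over several steps, while its namesake Rab7, a late endosome and lysosome Rab outside the set, had 12.90, 12.69, 12.81, 12.95 and 12.99 on the same arrays.

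Rab32 serves the making of lysosome-related organelles such as melanosomes and defends macrophages against bacteria in vacuoles. Its log2 values were 12.01, 10.81, 10.63, 10.66 and 10.87 at days 0, 1, 2, 3 and 5. The day 0 array stood apart from the later ones, which lay between 10.63 and 10.87. Day 5 was 2.21-fold lower than day 0 (log2 difference -1.14) and 0.061 from day 1. Rab32 and Rab38 are close relatives that share an exchange factor and an effector, and Rab38, outside the set, had 4.57, 5.87, 9.22, 10.53 and 10.44 on the same arrays. So 1 of this pair was lower from day 1 on and the other was higher on each later array than at day 0. The day 0 value of Rab38 lay below the level filter of 4.89, so the size of its difference is uncertain. The shared exchange factor is made of Hps1 (log2 difference at day 5 of 0.42) and Hps4 (-0.43), and the shared effector is Ankrd27 (-0.54), none of them 2-fold from day 0. These were named for this link after their values were seen.

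Rab12, which moves receptors from recycling endosomes towards lysosomes, and Rab29, which recruits the kinase Lrrk2 to membranes, made up the rest of the group. They were at 0.19 and 0.035 (log2 difference) at day 5. The values of Rab12 were 8.35, 8.16, 8.34, 8.47 and 8.54 over the days, and those of Rab29 were 8.72, 8.51, 8.53, 8.88 and 8.75. Both differences were under the median size of 0.23 by which rows of a gene disagreed between days 5 and 0. Their ranges over all 5 arrays were 0.39 and 0.37.

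**Figure D2:**
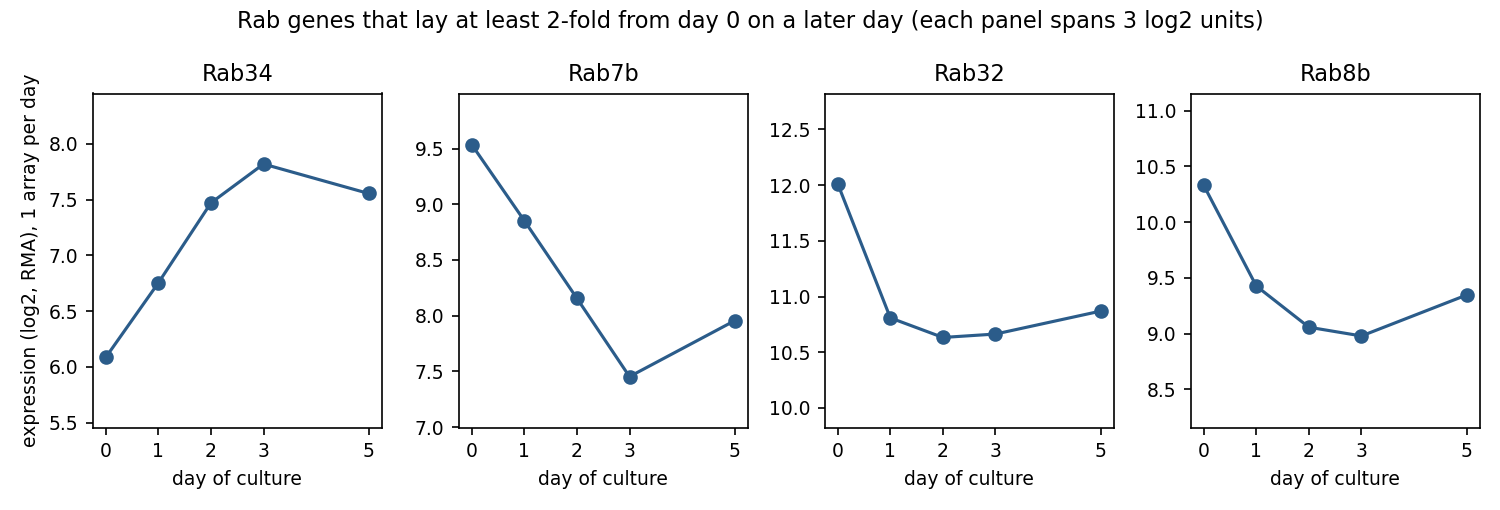
Log2 expression of Rab34, Rab7b, Rab32 and Rab8b (1 panel each, all spanning 3 log2 units) against the day of culture, 1 array per day; levels of different genes are not comparable. Rab34 is highest at day 3 (7.82), Rab7b is lowest at day 3 (7.45), and Rab32 and Rab8b are highest at day 0 (12.01 and 10.33).

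Of 11 secretory Rab genes, 7 were measured, and at day 5 none was 2-fold from day 0, with a median difference of 0.00. Rab8b, which carries vesicles from the Golgi and recycling compartments to the cell surface, had log2 values of 10.33, 9.43, 9.06, 8.98 and 9.35 at days 0, 1, 2, 3 and 5. The day 0 array was the highest, and the difference passed 2-fold at days 2 and 3 (-1.27 and -1.35) and came just short of it at day 5 (-0.98). Against day 1 it was -0.081. Its relative Rab8a, with a similar role, was flat in its brightest row, at 10.69, 10.65, 10.69, 10.69 and 10.74. A second, dimmer row for Rab8a was 0.36 above day 0 at day 5.

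Rab10, which brings vesicles to the plasma membrane, had 10.99, 10.78, 11.03, 11.07 and 11.02 over the days. Rab13, which moves cargo between the Golgi and the cell surface and has been described in differentiating osteoclasts, had 6.05, 5.77, 6.03, 6.28 and 6.64. Its day 5 array was the highest, at 0.59 from day 0 and 0.87 from day 1, the highest above day 1 among the measured Rab genes but short of 2-fold. Rab44, a large Rab with calcium-binding motifs that has been reported to restrain osteoclast formation, had 5.81, 5.69, 5.66, 5.58 and 5.28, lowest at day 5 (log2 difference -0.54). Rab3a and Rab3c, which control regulated exocytosis, were at 0.00 at day 5, and Rab3a held 6.23 on all arrays.

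In the recycling group, 5 of 8 members were measured and the median difference at day 5 was -0.087. Rab11a and Rab11b, which direct cargo from the recycling endosome back to the surface, differed in course. Rab11a had 9.24, 8.66, 8.48, 8.67 and 8.78 over the days, below day 0 on all later arrays (log2 difference -0.47 at day 5). Rab11b had 10.25, 9.99, 10.12, 10.26 and 10.27, with only days 1 and 2 below day 0. Of the 3 rows for Rab11b, the brightest and the second were at 0.018 and 0.032 at day 5 and the dimmest at 0.79, so they disagreed.

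Rab4a, of the fast recycling route, was lower at day 1 (5.02) than at day 0 (5.56) and higher at days 3 (6.04) and 5 (5.85), which put it 0.83 above day 1 at day 5. Rab14, between Golgi and endosomes, and Rab35, which recycles cargo and shapes actin, were at -0.38 and -0.087 at day 5. The brightest row that named Rab4b, which it shared with Mia, had 9.92, 9.37, 9.33, 9.40 and 9.52 over the days and cannot be assigned to either gene.

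Of 11 endosomal Rab genes, 9 were measured, and the median difference at day 5 was 0.0098, with a range from -0.58 to 0.69. Of the 3 Rab5 genes, whose proteins drive fusion of early endosomes, Rab5c was at -0.58, Rab5a at -0.17 and Rab5b at 0.18 at day 5. The differences of Rab5a and Rab5b were under the median size of 0.23 by which rows of a gene disagreed. Rab5c had 10.24, 9.68, 9.65, 9.66 and 9.65 over the days, a difference present at day 1 and level after it. Rab9, which returns receptors from late endosomes to the Golgi, had 6.68, 6.60, 6.44, 7.06 and 7.36, highest at day 5 (log2 difference 0.69), while Rab9b held 5.38 or 5.39 on all arrays.

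Rab31, which links the Golgi with endosomes, had 11.89, 11.35, 11.79, 11.82 and 11.89, with day 1 as the 1 array that stood off. Rab20, of phagosomes and macropinosomes, and Rab21, of early endosomes and integrin traffic, varied by 0.0098 and 0.093 over the arrays, and Rab22a, of early endosomes, was at 0.17 at day 5. None of these came near 2-fold.

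All 13 ER and Golgi Rab genes were measured, with a median difference of 0.033 at day 5 and a range from -0.58 to 0.18. Rab1a, which brings vesicles from the ER to the Golgi, had 12.29, 11.69, 11.93, 11.98 and 11.98 over the days, while Rab1b, with the same role, stayed between 10.97 and 11.14. Rab2a and Rab6a, of traffic around the Golgi, were at 0.046 and -0.0071 at day 5. The lowest of the group at day 5 were Rab19 (-0.58) and Rab33b (-0.51), a Golgi Rab that binds the autophagy factor Atg16l1. Both differences were present at day 1, with -0.56 and -0.53.

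Rab43, of the Golgi, was lowest at day 1 (5.47) and stood at 6.24 at day 5 and 6.10 at day 0. Rab6b had 6.53, 6.01, 6.25, 6.04 and 6.71 over the days, low at day 3 as well as at day 1, with only day 5 above day 0. A second, dimmer row for Rab6b was at 0.00 at day 5. Rab18, of the ER and lipid droplets, was at 0.033, and the remaining 4 (Rab2b, Rab30, Rab33a and Rab36) lay between -0.11 and 0.18 at day 5.

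Of the 6 genes with another or unsettled role, 5 were measured, and at day 5 they lay between -0.21 (Rab23, of cilia) and 0.076 (Rab24, linked to autophagy). Rab24 had 10.49, 10.50, 10.29, 10.45 and 10.56 over the days. Rab28, Rab40c and Rab42 were at 0.00, 0.00 and 0.071 at day 5.

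The 10 Rab genes under the level filter were Rab3b, Rab26, Rab27b and Rab37 (secretory), Rab15, Rab17 and Rab25 (recycling), Rab39 and Rab39b (endosomal) and Rab40b. Their values lay between 3.26 and 5.03 on all arrays, where RMA compresses differences. Among these, Rab40b, a Rab joined to a ubiquitin ligase, was 2-fold from day 0 on 1 array (log2 difference 1.13 at day 3, and 0.51 at day 5). Rab27b, of secretory granules, had the same value of 4.05 at days 0 and 5.

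Many Rab genes had a shallow low at days 1 and 2. The median difference from day 0 was -0.21, -0.12, -0.0062 and 0.0049 at days 1, 2, 3 and 5, while that of all measured genes was 0.00 at each. At day 1, 32 of 44 members were below day 0 by any amount (72.7%, against 43.2% of measured genes). At day 2, 33 of 44 were (75%, against 43.4%). Of the 44, 24 were lower at day 1 by 0.2 or more (54.5%, against 26.0% of measured genes). By as much, 2 were higher at day 1, Rab34 and Rab28 (4.55%, against 30.3%). This size was chosen after the data were seen. It is below both the SD (0.45) and the median size (0.23) of the disagreement between rows for these days. Among genes at or above the median Rab level of 8.16, the day 1 median was -0.23 for 22 Rab genes and 0.043 for all 4822 genes, and below that level it was -0.14 for Rab genes and 0.00 for 7227 genes. Of the 24 lower members, 14 were again 0.2 or more above their day 1 value at day 5 (58.3%, against 52.5% of all measured genes lower at day 1), and 12 were at or above day 0 (50%, against 31.0%). The same day 1 array picked these genes and was the base of the rise, so a return cannot be told apart from noise in that array. Those back at day 5 included Rab43, Rab4a, Rab31 and Rab6b, and those still low included Rab32, Rab8b, Rab7b, Rab11a, Rab5c, Rab19 and Rab33b.

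**Figure D3:**
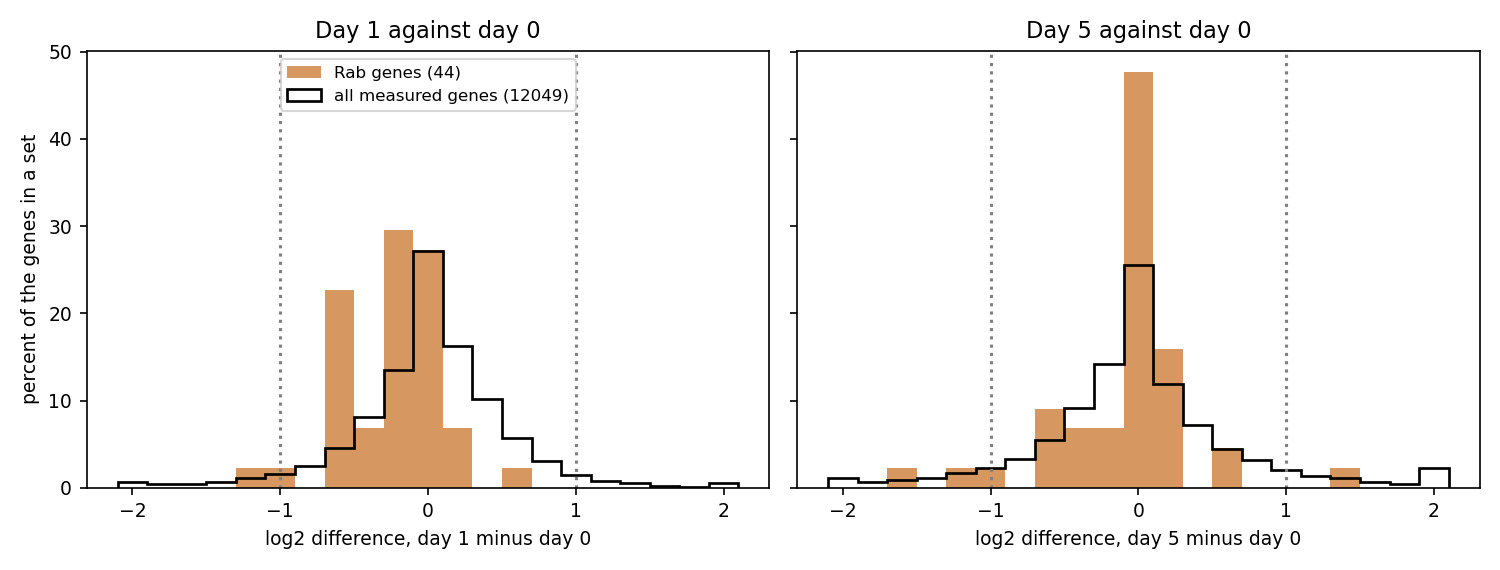
Percent of genes (vertical axis) by log2 difference from day 0 (horizontal axis, bins of 0.2) at day 1 (left) and day 5 (right), filled for the 44 Rab genes and outlined for all 12049 measured genes, whose differences beyond the axis are put in the end bins; dotted lines mark 2-fold. The Rab genes lie left of the outline at day 1 (median -0.21) and crowd around 0 at day 5 (median 0.0049).

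The genes of the proteins that load, switch and read Rab proteins were taken from a list of regulators and effectors. Of 104 measured regulators and effectors (126 listed), 11 were at least 2-fold higher at day 5 (10.6%, beside the 6.78% of all measured genes) and 7 lower (6.73%, beside 6.56%), with a median of 0.059. With arrays centred on reference genes, which moved the median of all measured genes by -0.43, 5 were higher (4.81%, against 3.71% of measured genes) and 11 lower (10.6%, against 14.5%). Centring on the median difference of the same reference genes, chosen after the data were seen, moved that median by -0.032. It left 11 higher (10.6%, against 6.47% of measured genes) and 7 lower (6.73%, against 6.94%). Among 5 genes of prenylation and of GDI, the carrier of inactive Rab proteins, 1 was lower (20%, against 6.56% of measured genes). This was Chml (-1.16), 1 of 2 escort proteins for prenylation. Its relative Chm was at -0.12, the carrier Gdi2 at -0.12 and the transferase subunit Rabggta at 0.11.

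Of 29 exchange factors, 1 was higher (3.45%, against 6.78% of measured genes) and 5 lower (17.2%, against 6.56%) at day 5. Against day 1, 0 were higher (against 6.30% of measured genes) and 1 lower (3.45%, against 6.73%). Rab3ip and Rab3il1, both exchange factors for Rab8, differed in direction: Rab3ip was higher (log2 values of 6.70, 7.83, 8.14, 8.21 and 8.03 over the days) and Rab3il1 was lower (10.11, 7.47, 7.64, 8.01 and 8.28). Their differences at day 5 were 1.33 and -1.82, and both were largely in place at day 1. Sh3bp5, an exchange factor for Rab11, had 10.06, 8.24, 7.96, 8.07 and 8.20, at -1.86 from day 0 and -0.048 from day 1. Dennd2c, of a family that acts on Rab9, was at -1.71 from day 0 and -1.03 from day 1, and Dennd4b (-1.26) and Dennd4a (-1.22), for Rab10, were lower too; Dennd4b and Dennd4a were added after their values were seen.

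Of 30 GTPase-activating proteins, 3 were higher at day 5 (10%, against 6.78% of measured genes), 0 were lower (against 6.56%), and the class median was 0.30. Sgsm1 had 4.24, 4.41, 6.35, 6.77 and 6.82 over the days (2.58 at day 5). Its first days lay below the level filter, and with day 0 set to the filter level the difference was 1.93. Tbc1d2b had 8.44, 9.02, 9.76, 10.66 and 10.37 (1.93), and Usp6nl, which acts on Rab5, was at 1.40. Against day 1, Tbc1d2b and Usp6nl were at 1.35 and 0.48.

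Of 40 effectors, 7 were higher at day 5 (17.5%, against 6.78% of measured genes), 1 was lower (2.5%, against 6.56%), and the class median was 0.019. Rilpl2 and Rilpl1, which bind Rab proteins phosphorylated by Lrrk2, were the highest. Rilpl2 had 7.94, 8.75, 9.39, 10.25 and 10.33 over the days (2.39 at day 5), and Rilpl1 had 7.80, 7.83, 9.45, 9.86 and 10.10 (2.29). Mical1, an actin-oxidising enzyme that binds Rab1 and Rab35, was at 1.64. The other 4, added after their values were seen, were Vps39 (1.39), a subunit of the tether for fusion with lysosomes, Plin3 (1.36), which binds Rab9, Micall1 (1.18), which binds Rab8 and Rab35, and Rabep1 (1.05), which binds Rab5 and Rab4. Lrrk2, the kinase itself, was the lower one, with 7.04, 6.59, 6.27, 5.99 and 5.65 over the days (-1.39).

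**Figure D4:**
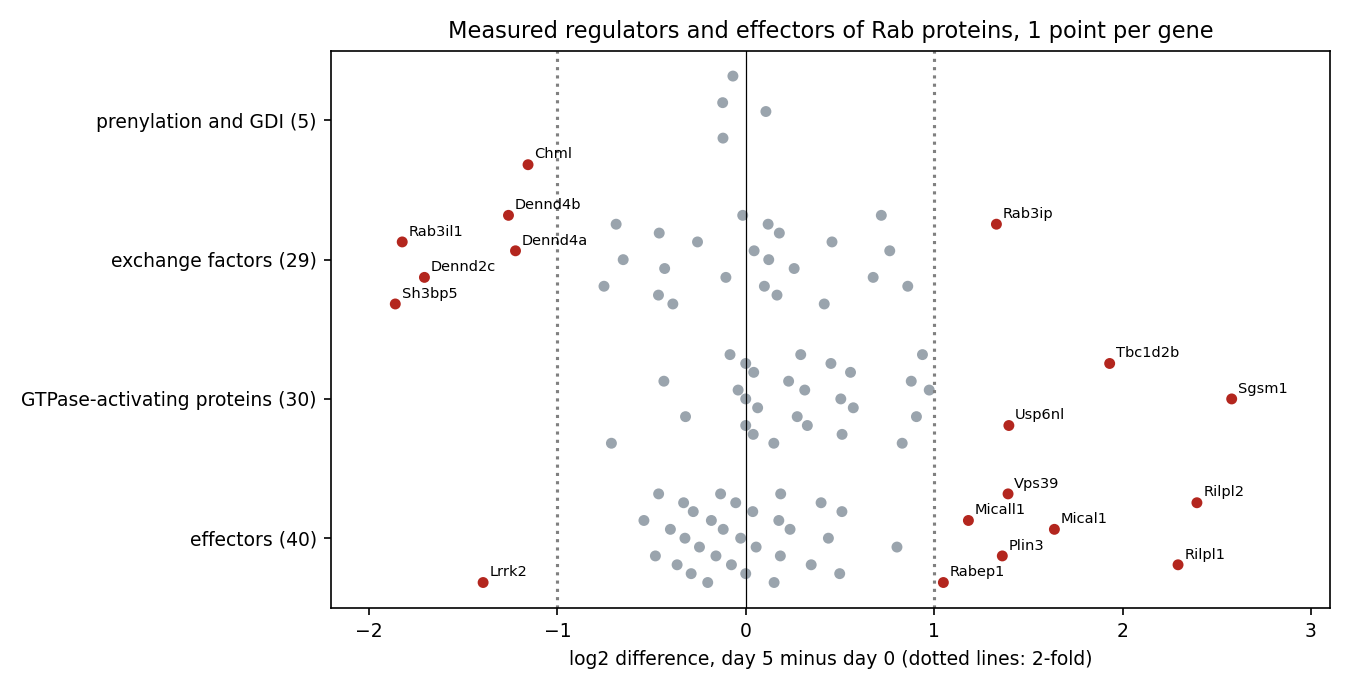
Log2 difference of day 5 from day 0 (horizontal axis) for 104 measured regulators and effectors of Rab proteins, 1 point per gene, in 4 classes with their size; height within a class only separates the points, and dotted lines mark 2-fold. Red, named points are the 11 higher and 7 lower genes. Of the 7 lower ones, 5 are exchange factors, a class of 29 (17.2%, against 6.56% of all measured genes). Against day 1 in place of day 0, 1 of the 29 is lower (3.45%, against 6.73%).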

How the data were processed

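RNA of wild-type cultures was profiled on 1 array per day at days 0, 1, 2, 3 and 5, assigned from the time in the labels. The table deposited by the authors holds log2 values. The submitters' processing notes name RMA, the oligo package and R 3.4.0. RMA corrects background, normalises arrays by quantiles and summarises probes. A shift of all genes between days can therefore not be seen, and ties occur. Probe summary level: not given in the sources used here.

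Of 41345 rows, 23521 named 1 gene in the platform annotation, 1814 several and 16010 were not listed. The row with the highest mean stood for a gene, and 6 Rab genes had several rows. All 54 Rab genes matched RefSeq by Entrez identifier, with 0 symbols changed. The level filter was the median of row means. Differences of log2 values were counted at 1 or more in size, with no test. The counting was tested on simulated data. Python 3.11.15, numpy 2.4.6, pandas 2.3.3 and matplotlib 3.10.9 were used. Members and lists were chosen with earlier results of these data known; roles are broad groupings by known function. Rab genes 2-fold from day 0 on any later day, their relatives by number and the highest-level member of each role were given by array, the others by ranges and counts, except that array values of further members were chosen after they were seen; regulators were named at 2-fold, up to 3 each way in a class. Alternatives covered scaling, rows, filters, size and days.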

Additional observations from a re-analysis of the deposited data

How the results depend on the processing

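No paired analysis was possible because each day had 1 array and the labels give no replicate numbers, and no replicate could be left out. Centring each array on 12 reference genes shifted the median of all measured genes by -0.43 at day 5. It gave a Rab median of -0.43, 5 Rab genes 2-fold lower at day 5 (Rab8b, Rab5c and Rab19 joined), 11.4% against 14.5% of measured genes, and 2 at day 1 (4.55% against 4.99%). For regulators it gave 5 higher (4.81% against 3.71%) and 11 lower (10.6% against 14.5%). Centring on the median difference of the same genes, chosen after seeing the data, shifted that median by -0.032 and put Rab8b at -1.02. It gave 1 Rab gene higher and 3 lower at day 5 (2.27% and 6.82%, against 6.47% and 6.94% of measured genes). Regulators stayed at 11 higher and 7 lower (10.6% and 6.73%). With 1.5-fold in place of 2-fold, 3 Rab genes were higher and 3 lower at day 5 (6.82% each, against 13.3% and 14.0% of measured genes), 1 was higher and 6 lower at day 1 (2.27% and 13.6%, against 9.75% and 9.79%), and 21 regulators were higher and 11 lower (20.2% and 10.6%). With 3-fold, 0 Rab genes were higher and 0 lower at day 5 (3.14% and 2.22% of measured genes were), 0 were lower at day 1 (1.34%), and 5 regulators were higher and 3 lower (4.81% and 2.88%). A level filter at the 75th percentile left 4 of 78 regulators lower (5.13%, against 7% of the 7153 genes that passed it). With day 1 in place of day 0, 0 Rab genes were higher and 0 lower, 12 regulators were higher and 1 lower (11.5% and 0.962%, against 6.30% and 6.73% of measured genes), Rab34 (0.80) and Rab7b (-0.90) were under 2-fold, and Rab32 turned to 0.061. The day 0 array thus decided the 2-fold difference of Rab32; the cause was not tested.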
